A study of Homo sapiens with 6 samples.

Results

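The genes described here are 10 genes of lipid droplets and of the response to fatty acids, namely PLIN2, PLIN3, HILPDA, G0S2, PNPLA2, ANGPTL4, DGAT1, DGAT2, CPT1A and PPARD, of 28395 genes in the table of the series. They were taken by symbol from a list based on gene function, and each symbol matched 1 row. RNA was sequenced from A375 cells, an established line of human melanoma, which the labels give as wild type. The cells had been exposed for 6 h to olive oil (OLO, 3 libraries) or to ozonated olive oil (OZO, 3 libraries), each at 0.01%, so every library came from oil-treated cells and an untreated group was not analysed here. Each gene has 1 value in what follows, the authors' mean over all 6 libraries, in log2 CPM (counts divided by library size, on a log2 scale). That mean spans both oils. The fold changes and p-values of the authors' comparison of OZO with OLO were not used here, and single libraries could not be examined, so no difference between the oils is given and no spread between libraries accompanies a level.

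Lipid droplets are stores of triglycerides and sterol esters inside cells, enclosed by a layer of phospholipid and coated with proteins such as the perilipins. Fatty acids taken up from outside are esterified into triglycerides for storage, and lipases on the droplet surface release them again for oxidation in mitochondria or as ligands. Fatty acids activate the nuclear receptors of the PPAR family, and PLIN2, ANGPTL4, CPT1A and HILPDA are known PPAR target genes in several tissues.

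The level of a gene was also expressed as reads. The lowest value in the table, -5.20 log2 CPM, was shared by 7012 genes and stands for no read in any library, which corresponds to a geometric mean size of 18409903 fragments per library. Read numbers below are means on a logarithmic scale per library, and the arithmetic mean over the libraries is at least as high. Of the 10 genes, 9 had 10 or more reads per library on this scale, against 48.5% of all genes in the table and 64.8% of its 19175 protein-coding genes. Set against the 13773 genes with at least 10 reads, 4 of the 10 genes lay above the median level. Per kilobase of exon, 5 did among the 13313 of these with a matched gene length, with HILPDA only at percentile 51.1. Counting error alone was taken as Poisson error over 6 times the log-scale mean reads, since the summed reads are not known. It was between 0.00691 and 0.0916 on the log2 scale for the 9 genes. This value is too low where reads differ between libraries, and it does not include the variation between cultures or between oils.

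**Figure D1:**
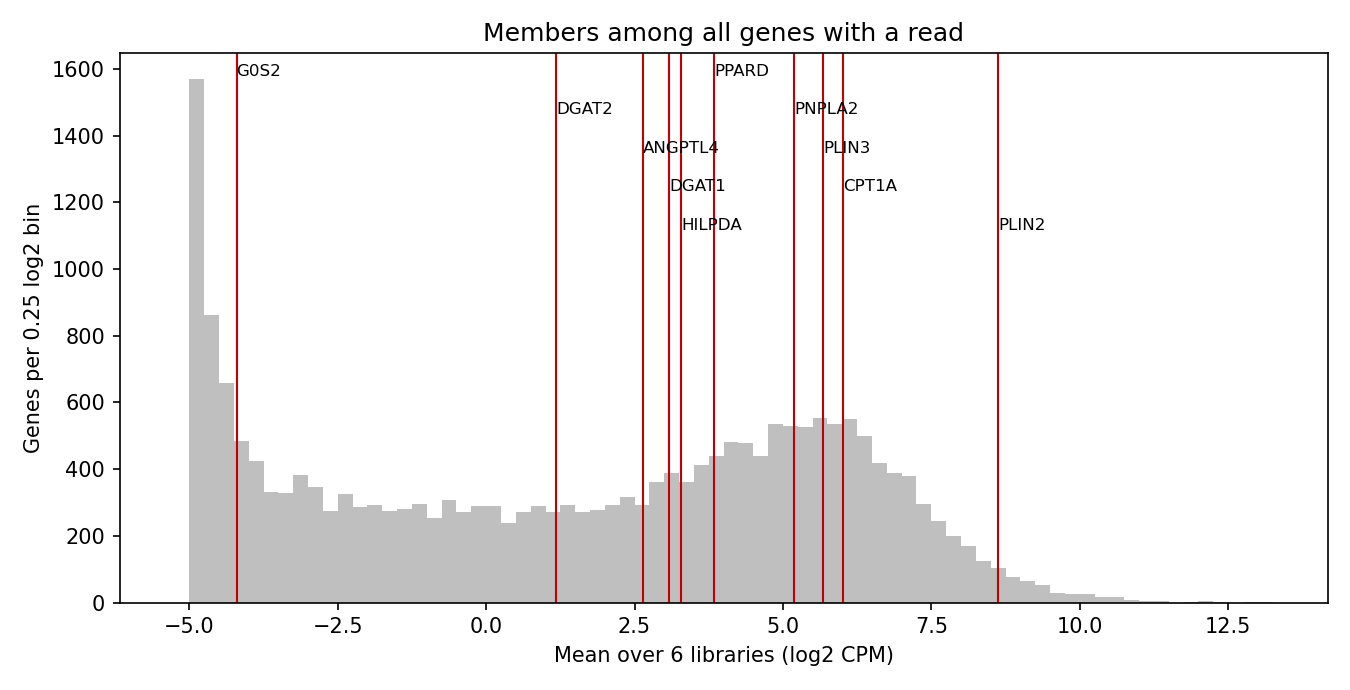
Histogram of the mean level over 6 libraries (log2 CPM, x axis) for the 21383 genes with a read, in bins of 0.25 (y axis, number of genes), with a red line at each of the 10 genes. PLIN2 lies in the right tail at 8.62, most of the others lie between 2.65 and 6.02, and G0S2 lies at -4.21 among genes with almost no reads.

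Both ends of the order of levels are shown by their promoters, from 250 bases before to 50 bases after the annotated start in RefSeq (build GRCh38.p14). PLIN2 had the highest and G0S2 the lowest level of the 10 genes. The PLIN2 promoter lies on the minus strand at chr9:19127443-19127742 and the G0S2 promoter on the plus strand at chr1:209675162-209675461. Each is written 5′ to 3′ on the strand of the gene, and capitals mark ACGTG read on either strand. ACGTG is a form of the core sequence bound by hypoxia-inducible factors, and the other form, GCGTG, was neither counted nor marked.

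PLIN2 promoter: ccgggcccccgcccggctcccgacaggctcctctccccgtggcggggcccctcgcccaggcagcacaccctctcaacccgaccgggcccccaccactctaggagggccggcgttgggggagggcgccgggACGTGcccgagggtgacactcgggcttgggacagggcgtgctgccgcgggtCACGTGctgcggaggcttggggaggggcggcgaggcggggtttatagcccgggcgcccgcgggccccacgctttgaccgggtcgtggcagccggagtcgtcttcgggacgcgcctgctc

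G0S2 promoter: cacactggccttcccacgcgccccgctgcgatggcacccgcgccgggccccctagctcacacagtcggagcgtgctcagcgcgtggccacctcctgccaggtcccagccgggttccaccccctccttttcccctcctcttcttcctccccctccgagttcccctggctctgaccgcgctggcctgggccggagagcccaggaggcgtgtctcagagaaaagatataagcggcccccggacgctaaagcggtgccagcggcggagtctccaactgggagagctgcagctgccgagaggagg

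In the PLIN2 promoter ACGTG was found at 3 places, of which a pair overlap as the palindrome CACGTG, between positions -120 and -116 and between -69 and -64 counted from the first transcribed base. The G0S2 promoter held no ACGTG. Each of the printed sequences also holds GCGTG, which was not counted. Promoter sequences were at hand for 7 of the 10 genes. Those of HILPDA, DGAT1 and DGAT2 were not in the RefSeq promoter set used here, so they were not searched. Of these, 2 held ACGTG, namely PLIN2 and ANGPTL4, and 21.6% of 27305 promoters of the same length did. A direct repeat of AGGTCA with 1 base between the copies, the element bound by PPAR with its partner RXR, was in none of the 7 and in 0.022% of all promoters on either strand. The PLIN2 promoter had a GC content of 76.7% with 36 CpG dinucleotides. The G0S2 promoter had 69.0% with 24 CpG, the same values as the PLIN3 promoter, and the median over all promoters was 58.3% with 14 CpG. These matches describe letters in a short window and say nothing about binding.

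To describe the droplet coat, the perilipins were examined first. PLIN2 (NCBI Gene 123, ENSG00000147872) encodes the perilipin that coats droplets in most cell types and is broken down when it is not bound to lipid. PLIN2 had a mean level of 8.62 log2 CPM, which corresponds to 7264 reads per library. Only 385 genes of the table lay above it, and it accounted for 67.1% of the summed CPM of the 10 genes. Neither value is corrected for gene length. The gene spans 19108375 to 19149290 on chromosome 9 (minus strand) and has 8 exons in its canonical transcript. PLIN3 (NCBI Gene 10226, chromosome 19, 4838341 to 4867694), a perilipin that moves between the cytosol and droplets, had 5.68 log2 CPM or 945 reads. An antisense long non-coding RNA shares 18.3% of the PLIN3 exon bases. Whether the authors' counting used strand is not given in the sources used here, so reads of overlapping genes could be mixed.

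Levels of different genes can be compared only per length, so each was divided by the kilobases of the gene's exons joined over all transcripts (exon union) in GENCODE 44. The exons over which the authors counted reads may differ from these, since the study's methods do not name the annotation used for counting. Per kilobase, PLIN2 was at 78.7 CPM and PLIN3 at 18.8 CPM, a ratio of 4.20. The ratio was 9.04 with the longest transcript as the length and 7.63 with the longest coding length, because the PLIN2 exon union of 5011 bases is much longer than its longest transcript of 1897 bases. The other perilipins were far lower. PLIN4 was at 0.178 CPM per kilobase, from 20.8 reads per library. PLIN1, the perilipin of fat cells, had 2.02 reads and PLIN5, the perilipin of oxidative tissues, had 1.07 reads, both under the floor of 3 reads below which no ratio is given. The order PLIN2, PLIN3, PLIN4 held with each of the 3 lengths.

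**Figure D2:**
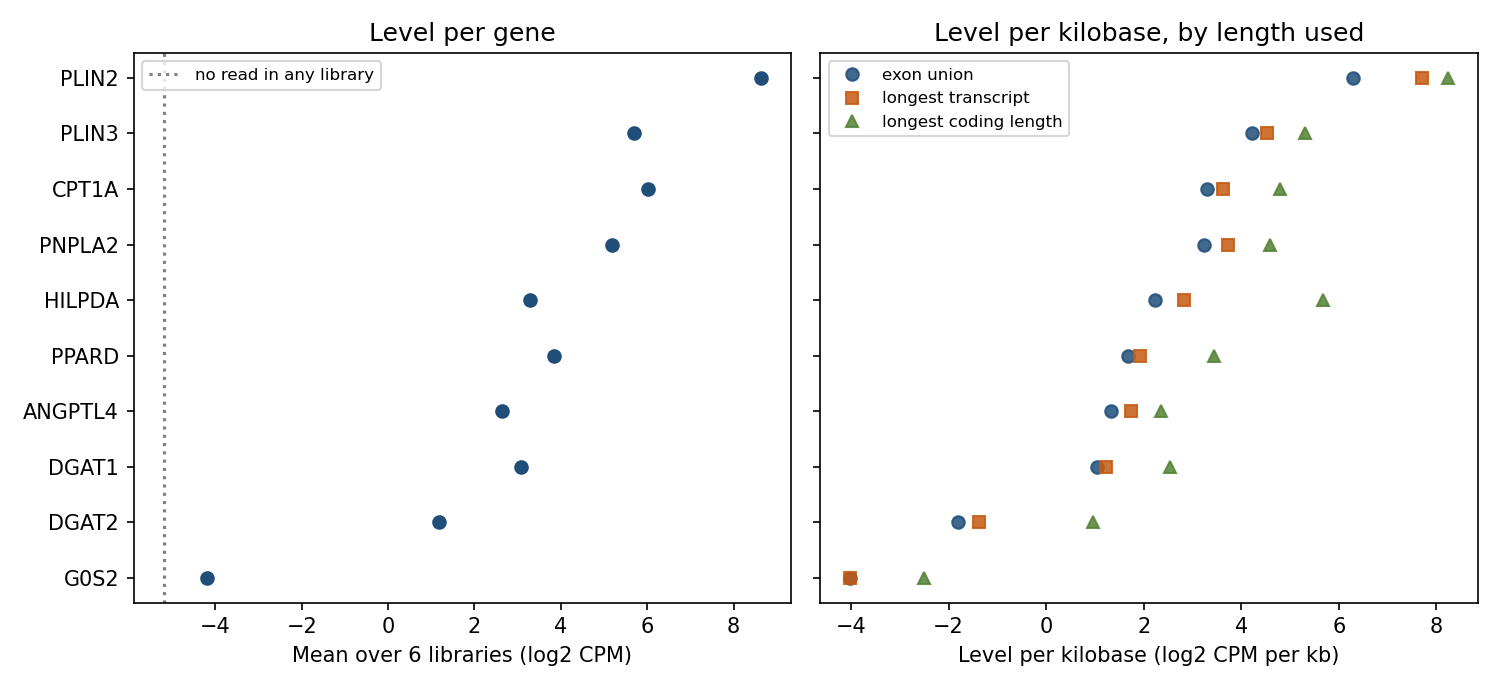
Levels of the 10 genes, ordered by level per kilobase of exon union. Left, mean over 6 libraries (log2 CPM) with error bars for counting error alone, which are smaller than the points, none for G0S2, and a dotted line at the value of no read. Right, level per kilobase (log2 CPM per kb) with the exon union (circles), the longest transcript (squares) or the longest coding length (triangles). PLIN2 is highest and G0S2 lowest with every length, while HILPDA moves from the fifth to the second place with the coding length.

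The regulators of triglyceride breakdown were examined next. PNPLA2 (NCBI Gene 57104, chromosome 11, 818914 to 825573, plus strand) encodes adipose triglyceride lipase, which removes the first fatty acid from a triglyceride. PNPLA2 had 5.18 log2 CPM or 669 reads per library, and 9.49 CPM per kilobase. An antisense long non-coding RNA shares 10.5% of its exon bases. It has 2 small protein inhibitors among the 10 genes, and their levels lay far apart. HILPDA (NCBI Gene 29923, chromosome 7, 128455849 to 128458418, plus strand), a droplet protein that is also induced by hypoxia, had 3.28 log2 CPM or 179 reads and 4.70 CPM per kilobase. G0S2 (NCBI Gene 50486, chromosome 1, 209675412 to 209676390, plus strand), the other inhibitor, had -4.21 log2 CPM, an implied 0.497 reads per library.

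The G0S2 value could be resolved into whole reads. Because the authors' voom step adds 0.5 to each count, 2 raised to 6 times the distance of a gene from the lowest value is the product over the libraries of 2 times the count plus 1. For G0S2 this product was 63, which can arise in 4 ways. The 6 libraries held 5 reads in all as 3, 1 and 1 read in 3 libraries, 7 reads as 4 and 3, 11 reads as 10 and 1, or 31 reads in 1 library. In each of the 4 cases at least 3 of the 6 libraries had no G0S2 read. Which libraries held the reads is not known here. G0S2 was thus read in 1 to 3 libraries, and expression below this depth could not be detected.

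PNPLA2 was 2.02-fold higher than HILPDA per kilobase of exon union. This order turned with the length used, since the HILPDA coding sequence is only 189 bases of an exon union of 2070 bases, and HILPDA was the higher of the 2 per coding length (log2 difference of PNPLA2 minus HILPDA -1.10). HILPDA also shares 9.0% of its exon bases with the long non-coding RNA HILPDA-AS1, annotated on the same strand in GENCODE 44. ANGPTL4 (NCBI Gene 51129, chromosome 19, 8363289 to 8374370, plus strand) encodes a secreted inhibitor of lipoprotein lipase. It had 2.65 log2 CPM or 115 reads, and 2.53 CPM per kilobase. The related ANGPTL8 had 1.81 reads per library, under the floor of 3 reads.

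The last step of triglyceride synthesis is made by a pair of unrelated enzymes of the endoplasmic reticulum. DGAT1 (NCBI Gene 8694, chromosome 8, 144314584 to 144326910, minus strand), which re-esterifies fatty acids, had 3.09 log2 CPM or 156 reads per library. DGAT2 (NCBI Gene 84649, chromosome 11, 75759512 to 75801535, plus strand), which uses mainly newly made fatty acids, had 1.18 log2 CPM or 41.3 reads. Per kilobase DGAT1 was at 2.06 CPM and DGAT2 at 0.287 CPM, a ratio of 7.17, and DGAT1 stayed higher with the longest transcript (6.08) and with the coding length (2.98). The log2 difference of 2.84 was large beside its counting error of 0.10. DGAT1 shares 10.7% of its exon bases with a long non-coding RNA on the same strand and 3.3% with the heat shock factor gene HSF1 on the opposite strand. DGAT2 had the largest counting error of the 9 genes with at least 10 reads.

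CPT1A (NCBI Gene 1374, chromosome 11, 68754620 to 68844410, minus strand) encodes the carnitine palmitoyltransferase of the outer mitochondrial membrane, the rate-limiting step of the entry of long-chain fatty acids into mitochondria. It had 6.02 log2 CPM or 1190 reads per library, the second highest level per gene among the 10 genes, and 9.84 CPM per kilobase. CPT1C, the brain isoform, had 4.81 reads per library and was at 0.0492 CPM per kilobase. CPT1B, the muscle isoform, had an implied 0.355 reads, and its product of 25 allows 4 or 12 reads in all, in at most 2 of the 6 libraries. CPT1A was therefore the one CPT1 gene with at least 10 reads. Exon overlaps with other genes were looked up for the 10 genes only, so their part in the CPT1B and CPT1C counts was not tested. CPT1A and PNPLA2 were neighbours in the order per kilobase and differed by 0.05 on the log2 scale with a counting error of 0.03, a difference within 2 times that error. With the longest transcript as the length PNPLA2 was the higher of the 2.

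PPARD (NCBI Gene 5467, chromosome 6, 35342558 to 35428191, plus strand) encodes the PPAR that is expressed in most tissues. It had 3.84 log2 CPM or 263 reads per library. Per kilobase of exon union PPARD was at 3.21 CPM, PPARG, the receptor that drives fat cell formation, at 2.03 CPM and PPARA, the receptor best known from liver, at 0.933 CPM. PPARG had 448 reads and PPARA 226 reads per library. PPARD lay above PPARA with each length (ratios of 3.45, 3.12 and 1.23), whereas its place above PPARG was lost with the longest transcript and with the coding length, where the ratio of PPARD to PPARG was 0.706 and 0.674. All 3 PPAR genes were thus read at more than 100 reads per library, and the order of PPARD and PPARG depended on the length.

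Across the 10 genes the order per kilobase of exon union was PLIN2, PLIN3, CPT1A, PNPLA2, HILPDA, PPARD, ANGPTL4, DGAT1, DGAT2 and G0S2. Neighbouring steps were a ratio of 4.20 between PLIN2 and PLIN3, 7.17 between DGAT1 and DGAT2, and between 1.04 and 2.02 for the steps from PLIN3 to DGAT1. Apart from the step between CPT1A and PNPLA2, the steps among the 9 genes with at least 10 reads exceeded 3 times their counting error with this length. With the coding length DGAT1 lay above ANGPTL4, and HILPDA lay above PLIN3, CPT1A and PNPLA2. The spread between libraries is not known here, so no test of these steps was made.

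To place the 10 genes in their pathway, 64 other genes of lipid droplets, lipolysis, triglyceride synthesis, fatty acid uptake and oxidation and PPAR partners were read from the same table. At least 10 reads per library were held by 41 of the 64, and 2 had no read. This share lies near the 64.8% of the 19175 protein-coding genes of the series. The counts of each list and of the marker genes below stand beside that same share. The 41 genes had a median of 4.76 CPM per kilobase, against 4.70 for the 9 genes with at least 10 reads. The median was 4.47 for the 13313 genes with at least 10 reads and a matched gene length. None of the 41 lay above PLIN2 per kilobase, and 9 lay above PLIN3.

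**Figure D3:**
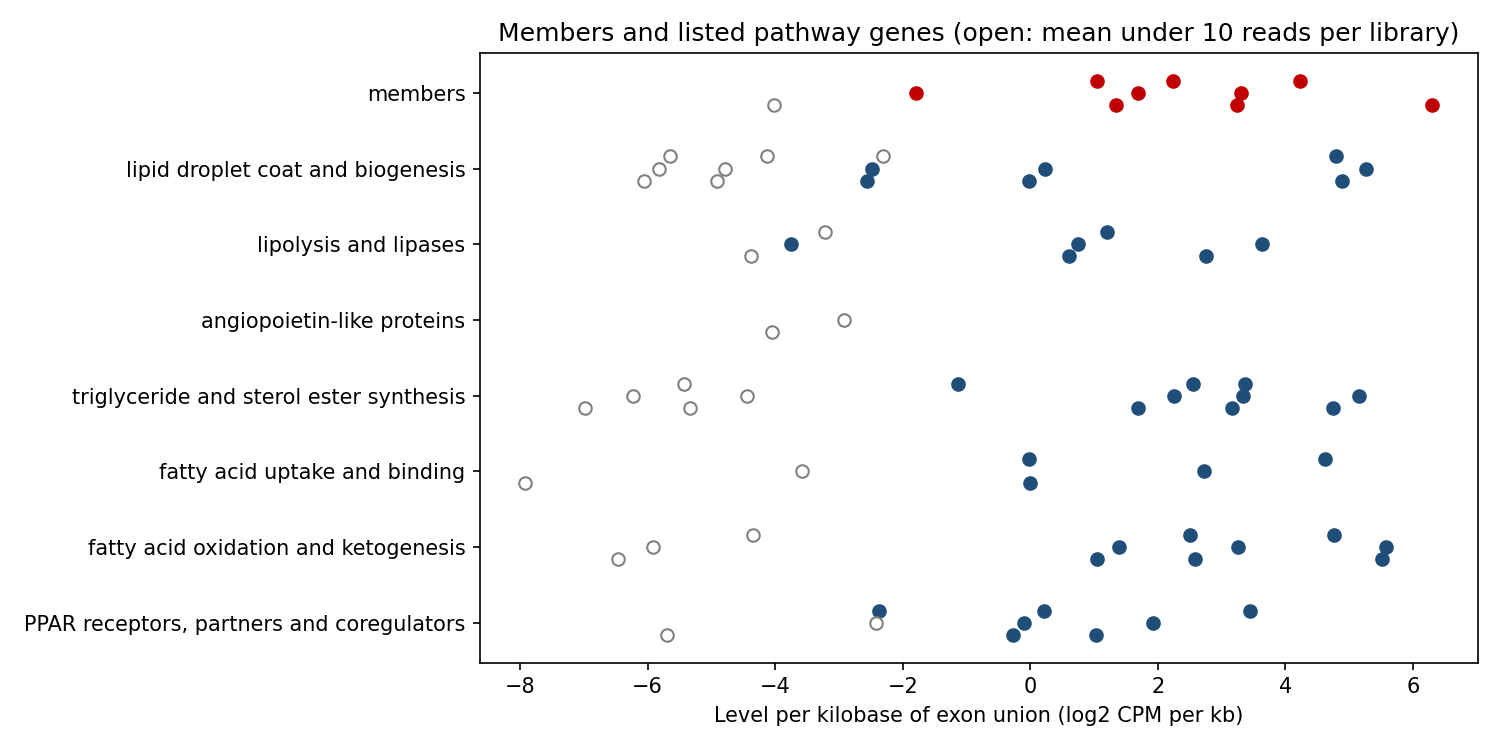
Level per kilobase of exon union (log2 CPM per kb, x axis) of the 10 genes (members, red) and of 64 listed pathway genes (blue) by list (y axis), each point 1 gene as a mean over 6 libraries, shifted vertically only for legibility. Open points are genes with a mean under 10 reads per library, and PLIN2 is the rightmost point at 6.30.

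Of 14 genes of the droplet coat and of droplet formation, 7 had at least 10 reads. FAF2, which recruits the p97 ATPase to droplets, and AUP1, a droplet protein of ubiquitin-dependent degradation, were highest at 38.2 and 29.6 CPM per kilobase, while CIDEA, a droplet fusion protein of brown fat, had no read. Of 8 lipases and lipase cofactors, 6 had at least 10 reads, led by the lysosomal acid lipase LIPA at 12.3 CPM per kilobase and by ABHD5, the coactivator of PNPLA2, at 6.74. In triglyceride and sterol ester synthesis 9 of 14 had at least 10 reads. GPAT3, which adds the first fatty acid to glycerol phosphate, was at 35.7 CPM per kilobase and the sterol esterifying enzyme SOAT1 at 26.9, and MOGAT1, a monoacylglycerol acyltransferase, had no read.

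For the supply and use of fatty acids, 4 of 6 uptake and binding genes and 8 of 11 oxidation and ketogenesis genes had at least 10 reads. The fatty acid binding protein FABP5 was at 24.5 CPM per kilobase and the transporter SLC27A4 at 6.59. HADHA, the alpha subunit of the mitochondrial trifunctional protein, and ACADVL, the very-long-chain acyl-CoA dehydrogenase, were the highest of the 64 genes at 47.5 and 45.9 CPM per kilobase, below PLIN2. Of 9 PPAR receptors, partners and coregulators 7 had at least 10 reads, led by the corepressor NCOR1 at 10.9 CPM per kilobase. RXRB, a partner of the PPARs, and AGPAT1, an acyltransferase of glycerolipid synthesis, had only 0.879 and 1.14 reads per library. Both lie on chromosome 6 between 28 and 34 Mb, where 8.70% of 184 protein-coding genes had at least 10 reads, against 63.7% of 810 on the rest of that chromosome. The part of the region in these low values was not tested. None of the 10 genes lies in that region.

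The labelled cell type was checked against marker genes. Of 8 melanocytic markers, 5 had at least 10 reads per library, led by the transcription factor SOX10 with 919 reads, with MITF at 499 reads and S100B at 51.0 reads. Among the pigment cell genes, MLANA had 36.6 reads, TYRP1 11.02 reads, PMEL 5.75 reads and DCT 4.74 reads, and TYR had no read. Among 6 markers of fat cells only LPL had at least 10 reads, with 128 reads, whereas LEP had no read and ADIPOQ 1 read in 1 library. None of 3 hepatocyte markers had at least 10 reads. Of 4 keratinocyte markers KRT10 and KRT14 had at least 10 reads, with KRT10 highest at 469 reads and no read of KRT1. Of 3 fibroblast markers 2 had at least 10 reads, led by LUM with 87.6 reads, and of 3 macrophage markers 2 had, led by the lysosomal protein gene CD68 with 603 reads, while PTPRC had 1.07 reads.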

How the data were processed

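RNA-seq libraries of A375 cells (3 OLO, 3 OZO; groups from the sample titles) were made with a strand-specific kit. Per the study's methods and the submitters' processing notes, the authors aligned reads to hg38 with HISAT2 2.1.0, counted them per gene with featureCounts 2.1.1 and ran limma 3.58.1 with voom. The low-count filter, scaling factors and use of strand are not given in the sources used here. Genes with no read in any library had not been removed, since the table holds 7012 of them. The deposited log2 values used are the authors' mean log2 CPM per gene over all 6 libraries, with 0.5 added to each count. The other numeric columns hold the authors' comparison of OZO with OLO (fold change, moderated t, p-value, adjusted p-value, log odds) and were not used, and no test between groups was run.

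From the mean level, reads per library were computed against the lowest value of the table. Of the 11518 genes with the lowest values, 100% gave an odd whole product within 1e-06. This number includes the 7012 genes with no read, whose product is fixed by definition, so only the other genes test this. The size of each single library is unknown. Lengths and positions are from GENCODE 44 (GRCh38, the assembly of hg38), matched by Ensembl identifier for 25497 genes, and promoters and gene types are from RefSeq GRCh38.p14. The conversion back to reads was also run on simulated counts put through the same formula. That run checks the arithmetic only and cannot show that the deposited values were made this way. Python 3.11.15, numpy 2.4.6, pandas 2.3.3 and matplotlib 3.10.9 were used.

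The 10 genes and all lists were chosen with earlier results of these data known. Named were all 10 genes, the 2 highest genes per kilobase and every unread gene of each pathway list, the highest and every unread marker, and relatives of the same family. RXRB, AGPAT1 and the further markers were named after their values were seen. Some genes that meet this rule are not reported here. Alternatives were 3 and 100 reads as the minimum, 2 other gene lengths, other reference sets for ranks and reads without the subtraction of 0.5.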

Additional observations from a re-analysis of the deposited data

How the results depend on the processing

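No paired analysis was possible because each gene has only a mean over all libraries. For the same reason leaving out a replicate, a low-count filter on single libraries and another normalization were not run. The count of 9 genes with at least 10 reads was 9 at a minimum of 3 reads and 8 at 100 reads, and the 41 of 64 pathway genes became 46 and 32. The median percentile of the 10 genes, 38.3 among genes with at least 10 reads, was 70.05 among all genes, 60.25 among genes with a read and 47.1 per kilobase, since the reference set or the scale differs by construction. Of the 10 places in the order per kilobase, 8 held with the longest transcript and 4 with the coding length. Log2 differences turned sign for PPARD minus PPARG (0.66, then -0.50 with the longest transcript and -0.57 with the coding length), for CPT1A minus PNPLA2 (0.05, then -0.11 with the longest transcript) and, with the coding length, for PNPLA2 minus HILPDA (1.01, then -1.10), PLIN3 minus HILPDA (1.996, then -0.38), CPT1A minus HILPDA (1.07, then -0.88) and ANGPTL4 minus DGAT1 (0.30, then -0.18). These turns follow from the lengths alone.

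Depth limits G0S2, which was at or under 31 reads over all libraries, and leaves DGAT2 with a counting error of 0.0916 on the log2 scale.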

Other observations

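Among protein-coding genes with a RefSeq position on chromosome 6 between 28 and 34 Mb, 97 of 184 had no read in any library, against 89 of 810 on the rest of the chromosome. The median level in that region was -5.20 log2 CPM, the value of no read, and it was 2.57 on the rest of chromosome 6 and 2.60 over 19175 protein-coding genes. The region was chosen after the values of RXRB and AGPAT1 were seen. Levels of lipid genes in it, such as these 2, are given as uncertain. The part of the region in them was not tested.

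Whole reads were also resolved for other genes of lipid metabolism. MOGAT2 and MOGAT3, which encode monoacylglycerol acyltransferases, each had 1 read in 1 of the 6 libraries. CD36, a fatty acid transporter of the plasma membrane, had 4 or 10 reads in all, in at most 2 libraries. These genes were named after their values were seen.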
